A study of Mus musculus with 27 samples.

Results

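The transfer RNAs (tRNAs) that carry the basic amino acids lysine (Lys), arginine (Arg) and histidine (His) were followed through 3 subcellular fractions of 3 kinds of mouse cells. They were the entries of the tRNA class whose names begin with tRNA-Lys, tRNA-Arg or tRNA-His, and numbered 40 of the 193 tRNA entries and of the 1013 small RNA entries measured. Lys had 19 entries (9 with anticodon CTT and 10 with TTT), Arg had 11 (CCT 3, TCT 3, CCG 2, TCG 2 and ACG 1), and His had 10, all with anticodon GTG. RNA shorter than 200 nt, with ribosomal RNA removed, was sequenced from chromatin, from the nucleoplasm (the soluble part of the nucleus) and from cytoplasm. The cells were mESC (E14 embryonic stem cells grown with LIF), mNPC (a neural progenitor line set up in the depositing laboratory, grown with EGF and FGF at 10 ng/ml) and mCtx (primary cortical neurons after 5 days in culture). The labels name no transgene or further treatment, and mESC and mNPC are each 1 line. Each of the 9 groups had 3 libraries, 27 in all. Replicates are described as biological, with no mention of separate cultures, and the p-values below measure the spread between libraries, which may be technical.

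A tRNA brings its amino acid to the ribosome and pairs, through its anticodon, with the matching codon of the mRNA. RNA polymerase III transcribes tRNAs in the nucleus, where their ends are trimmed and any intron is removed before most of the finished tRNA moves to the cytoplasm. Lys-TTT reads the codon AAA and Lys-CTT the codon AAG, Arg-TCT reads AGA, Arg-CCT reads AGG, the other Arg anticodons read codons that begin with CG, and His-GTG reads both histidine codons. In a name such as tRNA-Lys-TTT-1-4, the number after the anticodon marks a mature sequence (an isodecoder, one of several tRNAs that share an anticodon but differ elsewhere), and the last number marks a gene copy of it. Copies with one mature sequence cannot be told apart by reads that lie inside it, so levels are given mainly as sums over all entries of an anticodon.

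Sequences for 2 Arg members were found inside annotated transcripts of GENCODE release M21 for the GRCm38 genome, the build of all positions here, and they are shown because one is split by an intron and the other is not. Capitals mark the anticodon, which a search placed at bases 34 to 36 counted from the 5′ end. tRNA-Arg-TCG-1-1 (chr7:79466419-79466491, plus strand) is 73 bases long and lies in an exon of Gm10616. tRNA-Arg-TCT-2-1 (chr3:122292948-122293032, minus strand) is 85 bases long as a gene, with its intron, and lies in an exon of Gm17494.
tRNA-Arg-TCG-1-1: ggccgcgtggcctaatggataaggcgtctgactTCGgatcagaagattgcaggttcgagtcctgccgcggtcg
tRNA-Arg-TCT-2-1: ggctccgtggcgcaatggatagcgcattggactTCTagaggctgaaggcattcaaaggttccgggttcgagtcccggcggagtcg

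Of the 40 members, 39 lay exactly on a tRNA gene of the RefSeq annotation and 8 overlapped a GENCODE gene, 2 of them in an exon and the others outside exons. The exception to the RefSeq match was tRNA-Lys-TTT-5-1 (chr6:100471535-100471598, minus strand), whose entry spans 64 bases. For 7 Lys-TTT members, all 6 copies of Lys-TTT-1 and tRNA-Lys-TTT-2-1, the RefSeq gene symbol carries the anticodon CTT and not TTT. This disagreement could not be settled without their sequences, and the names of the deposited table are kept. Several genes sit close together: tRNA-Lys-TTT-1-1 and tRNA-Lys-TTT-1-2 are neighbours on chromosome 1 (chr1:133033962-133034034 and chr1:133034327-133034399), and tRNA-Arg-CCT-1-1 and tRNA-Arg-CCT-2-1 on chromosome 11 (chr11:115412981-115413053 and chr11:115413304-115413376). On chromosome 19, tRNA-Lys-TTT-1-5 (chr19:12006039-12006111), tRNA-Lys-TTT-1-6 (chr19:12009696-12009768) and tRNA-Arg-TCT-4-1 (chr19:12011588-12011673) follow one another.

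Levels are in RPM (reads scaled to a fixed library total) as deposited. RPM gives a share of a library and no amount per cell, and in bulk RNA fewer cells of a type and less RNA per cell cannot be told apart. The libraries were 120 to 160 bp long with adapters of unstated length, so a tRNA entry may hold whole tRNAs or pieces of them. Depending on the library, the smallest listed value other than 0 was between 5.16 and 59.07 RPM. A 0 is therefore never taken as absence. The listed values of a library summed to 73.9% to 97.4% of the RPM total. Stem cell miRNAs (7 of 8 markers found in the table) summed to between 8000.3 and 46671 RPM in mESC libraries and were at 0 in every mNPC and mCtx library. Neuronal miRNAs (5 of 5) summed to between 16660.4 and 49023 RPM in mCtx, against 354 to 1449.9 RPM in mNPC and 52 to 977 RPM in mESC. The 4 neural progenitor miRNAs were abundant in both mNPC and mCtx and so did not separate the 2. Markers of endothelium and mesenchyme (4 of 5 found) summed to between 949 and 7558 RPM in mESC, 112 and 345 RPM in mNPC, and 2192 and 4075 RPM in mCtx. Markers of microglia and blood (2 of 5 found) reached 1774 RPM in mESC and 44.5 RPM in mCtx and were at 0 in all mNPC libraries. The glial marker found (1 of 2) reached 158 RPM in mNPC and 80.6 RPM in mCtx and was at 0 in all mESC libraries. The part of such cells in the results was not tested.

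The basic amino acid tRNAs made up a large part of the tRNA class. They held, as the mean of 3 libraries, 52.0% of the class RPM in chromatin, 57.9% in nucleoplasm and 46.9% in cytoplasm of mESC, and 74.4%, 51.2% and 47.1% in the same fractions of mNPC. In mCtx the shares were 57.4% in chromatin, 35.3% in nucleoplasm and 27.1% in cytoplasm. Nearly all of this was Lys and His: Arg held between 0% and 5.34% of the class in any library. Of all 40 members, 18 were above 0 in all 27 libraries, and a library listed between 19 and 33 of them.

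**Figure D1:**
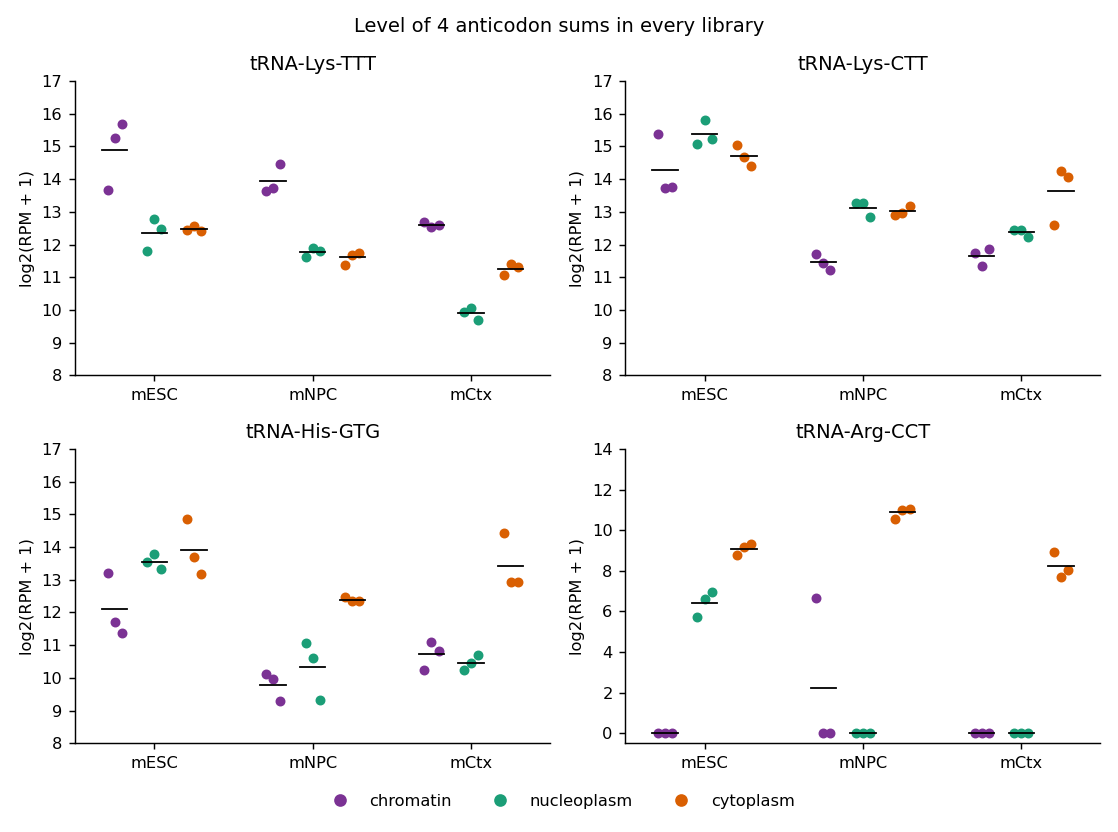
Level of Lys-TTT, Lys-CTT, His-GTG and Arg-CCT on the log2(RPM + 1) scale; each point is 1 library, black lines are means of 3, and the cell types run from left to right with chromatin, nucleoplasm and cytoplasm in each. In all 3 cell types the chromatin points of Lys-TTT lie above its cytoplasm points, and those of Arg-CCT below.

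Lys-TTT was listed far higher in chromatin than in cytoplasm in every cell type, whereas His-GTG and Arg-CCT were lower in chromatin in every cell type, and Lys-CTT was lower in mNPC and mCtx. Changes were tested with limma on log2(RPM + 1) across all features that reached 1 RPM in at least 3 libraries, 729 when tRNAs are summed by anticodon, and a difference was called at a Benjamini-Hochberg adjusted p under 0.05. All members but Arg-ACG passed this filter as sums, that is 7 of 8 anticodons. Between chromatin and cytoplasm, 2 of these 7 were called higher and 2 lower in mESC, 1 higher and 3 lower in mNPC, and 1 higher and 4 lower in mCtx. Over all features 57.1% were called in mESC, 38% in mNPC and 39.9% in mCtx, so the count of members called in mESC, 4 of 7, is near the background. The median log2 difference of the 7 sums was -0.42 in mESC, 0.00 in mNPC and -3.07 in mCtx, beside a median over all features of 0.00 in each. A feature at 0 RPM in both groups, such as Arg-CCG in mNPC, has a difference of 0.00, so these medians can reflect such features. Among the 30 other tRNA anticodons tested, 6 were called higher and 12 lower in mESC, 1 higher and 10 lower in mNPC, and none higher and 20 lower in mCtx. Lys-TTT was therefore the single tRNA anticodon of 37 that was called higher in mCtx chromatin.

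Beside these differences, chromatin libraries held much more snoRNA, the RNAs that guide modification of rRNA: between 335551 and 426341 RPM in mESC chromatin, against 2294 to 4789 RPM in mESC cytoplasm. In mNPC the snoRNA class held 204958 to 351637 RPM in chromatin, against 270.1 to 610 RPM in cytoplasm, and in mCtx 171205 to 187773 RPM in chromatin, against 516 to 606 RPM in cytoplasm. Scaling to reads outside snoRNA moved Lys-CTT by 1.15 log2 units upwards in mESC chromatin against cytoplasm, by 0.69 in mNPC and by 0.59 in mCtx, while the median of all features moved by 0.00. Features at 0 RPM in both groups stay at 0.00 under any scaling. A median shift of 0.00 therefore does not show how features with reads moved. Under that scaling the share of calls that were higher in chromatin changed to 56.4% in mESC, 69.4% in mNPC and 66.4% in mCtx, against 46.2%, 57.4% and 56% as deposited. Besides the calls named with each member, it made a call of the Lys-CTT interaction of mNPC minus mESC between chromatin and cytoplasm, at -1.60 (limma adjusted p = 0.031), and ended the Arg-TCG call between nucleoplasm and cytoplasm of mCtx (limma adjusted p = 0.0533).

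Lys-TTT had 13154, 39301 and 52659 RPM in the 3 mESC chromatin libraries, 3568, 6995 and 5726 RPM in nucleoplasm, and 5582, 6017 and 5404 RPM in cytoplasm. Every chromatin library exceeded every library of the other fractions. In mNPC it had 12733, 13544 and 22761 RPM in chromatin, 3136, 3845 and 3554 RPM in nucleoplasm, and 2684, 3314 and 3435 RPM in cytoplasm, again without overlap between chromatin and the rest. In mCtx it had 6572, 5899.8 and 6200.2 RPM in chromatin, 982, 1066 and 828 RPM in nucleoplasm, and 2162, 2685 and 2552 RPM in cytoplasm, and here all 3 fractions were apart. The log2 difference of chromatin over cytoplasm was 2.41 (SE 0.35, limma adjusted p = 4.69e-06) in mESC. It was 2.34 (SE 0.35, limma adjusted p = 1.23e-05) in mNPC and 1.34 (SE 0.35, limma adjusted p = 0.00359) in mCtx. The call was kept under all 38 alternative settings in each cell type, including scaling to reads outside snoRNA and to tRNA reads, with log2 differences of 2.01 to 3.56 (mESC), 2.07 to 3.02 (mNPC) and 1.25 to 3.83 (mCtx). Replicate 1 of mESC chromatin was the lowest of its group for Lys-TTT and the highest for Lys-CTT and His-GTG, and without it the mESC difference of Lys-TTT was 3.01 (limma adjusted p = 4.01e-09). The size of the Lys-TTT difference did not pass a test between cell types, at -0.08 (SE 0.49) for mNPC minus mESC and -0.995 (SE 0.49) for mCtx minus mNPC, with limma adjusted p = 1 and 0.196. Without mESC chromatin replicate 1, which widens the spread of Lys-TTT, the value of mCtx minus mNPC passed (limma adjusted p = 0.0372).

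Lys-CTT, the other Lys anticodon, was not called between chromatin and cytoplasm in mESC and was lower in chromatin of the other cells. It had 42658, 13596 and 13779 RPM in mESC chromatin, 34509, 58001 and 38729.8 RPM in nucleoplasm, and 33987, 26072 and 21515 RPM in cytoplasm. Chromatin replicates 2 and 3 were below all cytoplasm libraries, while replicate 1 was above them. In mNPC it had 3359, 2752 and 2389 RPM in chromatin, 9882, 9792 and 7418 RPM in nucleoplasm, and 7709.8, 8006 and 9187 RPM in cytoplasm, with chromatin below all the others. In mCtx it had 3413, 2614 and 3721 RPM in chromatin, 5582, 5539 and 4810.4 RPM in nucleoplasm, and 6254, 19475 and 17208 RPM in cytoplasm. Chromatin was the lowest fraction without overlap in mCtx, and cytoplasm replicate 1 stood well below the other cytoplasm libraries. That library also had less neuronal miRNA, at 16660.4 RPM against 32945 and 34066 RPM in replicates 2 and 3, and more progenitor miRNA, at 139663 RPM against 71181 and 65993 RPM, and their part in the result was not tested. The log2 difference of chromatin over cytoplasm was -0.42 (SE 0.39, limma adjusted p = 0.418) in mESC, -1.56 (SE 0.39, limma adjusted p = 0.00305) in mNPC and -1.99 (SE 0.39, limma adjusted p = 0.000313) in mCtx. Without mESC chromatin replicate 1 the mESC value became -0.96 and passed, with limma adjusted p = 0.0226. Scaling to reads outside snoRNA ended the mNPC call, at -0.87 (limma adjusted p = 0.0926), and scaling to tRNA reads turned the mCtx direction, at 0.50 (limma adjusted p = 0.244).

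The balance between the Lys anticodons is given as a description without a test. Lys-TTT made up 23.6%, 74.3% and 79.3% of Lys RPM in the mESC chromatin libraries, 9.37%, 10.76% and 12.9% in the nucleoplasm, and 14.1%, 18.8% and 20.1% in cytoplasm. In mNPC its share was 79.1%, 83.1% and 90.5% in chromatin, 24.1%, 28.2% and 32.4% in the nucleoplasm, and 25.8%, 29.3% and 27.2% in cytoplasm. In mCtx its share was 65.8%, 69.3% and 62.5% in chromatin, 15.0%, 16.1% and 14.7% in the nucleoplasm, and 25.7%, 12.1% and 12.9% in cytoplasm. Lys-TTT was the majority of Lys RPM in 8 of the 9 chromatin libraries and a minority in all 18 others, and these shares do not depend on how a library is scaled. Over the 27 libraries the log2(RPM + 1) levels of Lys-TTT and Lys-CTT had a Pearson r of 0.06, a description over libraries that share fractions and cell types.

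**Figure D2:**
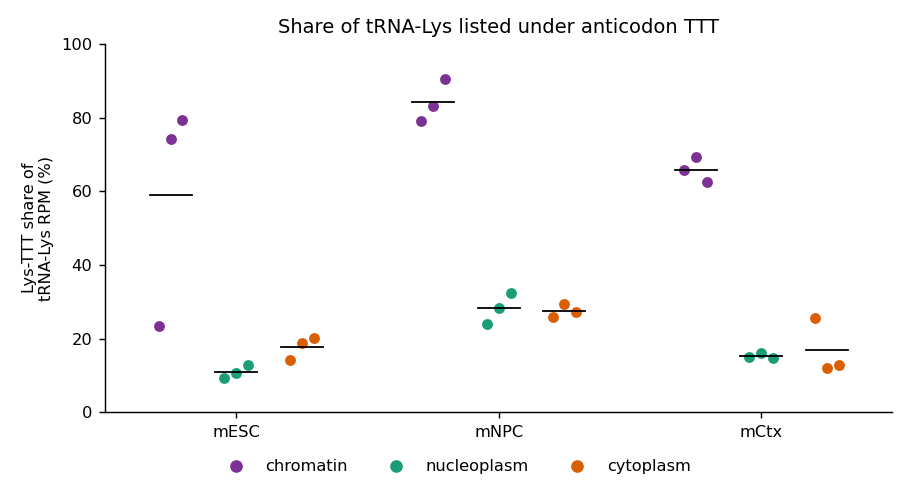
Share of tRNA-Lys RPM listed under anticodon TTT, in percent; each point is 1 library, black lines are means of 3. Chromatin libraries lie between 62.5% and 90.5% except mESC replicate 1 at 23.6%, and all nucleoplasm and cytoplasm libraries lie at 32.4% or less.

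Within Lys-TTT, the isodecoders were distributed unequally. Lys-TTT-1, with 6 gene copies, held 58.1% to 100% of Lys-TTT RPM. Lys-TTT-2 (tRNA-Lys-TTT-2-1 at chr7:28793988-28794060 in Rinl, and tRNA-Lys-TTT-2-2 at chr13:21907940-21908012) held 10.5% to 18.6% in mESC libraries, against 0% to 7.65% in mNPC and mCtx. tRNA-Lys-TTT-2-1 had 868, 3296 and 4509.6 RPM in mESC chromatin, 189, 609 and 545 RPM in nucleoplasm, and 342, 559.9 and 485 RPM in cytoplasm. In mNPC it had 74.8, 82.5 and 157 RPM in chromatin, 0 in all nucleoplasm libraries, and 96.4, 127 and 79.0 RPM in cytoplasm, below every mESC library of the same fraction. Its mNPC over mESC log2 difference was -4.55 (SE 0.49, limma adjusted p = 1.02e-07) in chromatin and -2.19 (SE 0.49, limma adjusted p = 0.000911) in cytoplasm, in the fit of single entries. In mCtx it had 70.5, 60.1 and 53.1 RPM in chromatin, 0 in nucleoplasm, and 62.9, 93.5 and 68.7 RPM in cytoplasm.

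tRNA-Lys-TTT-5-1 had higher listed values in cytoplasm than in chromatin, unlike the Lys-TTT sum. It had 170.3, 0 and 0 RPM in mESC chromatin, 103, 106 and 0 RPM in nucleoplasm, and 473, 388 and 398 RPM in cytoplasm. In mNPC it was listed in cytoplasm alone, with 96.4, 127 and 79.0 RPM, and these values equal those of tRNA-Lys-TTT-2-1 in the same libraries, so the reads may be shared. In mCtx it had 85.3, 151 and 0 RPM in chromatin, 134, 59.4 and 82.8 RPM in nucleoplasm, and 780.03, 471 and 544 RPM in cytoplasm, and in mCtx cytoplasm it made up 36.1%, 17.5% and 21.3% of Lys-TTT. It was called lower in chromatin than in cytoplasm in mESC and mNPC (limma adjusted p = 0.0072 and 0.0073) and was not called in mCtx (limma adjusted p = 0.0501). tRNA-Lys-TTT-3-1 (chr13:21971788-21971860) was listed in 2 libraries, mESC chromatin replicates 2 and 3, at 98.0 and 145 RPM, and did not pass the filter.

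The 6 copies of Lys-TTT-1 did not share their level evenly, although they have one mature sequence by their names. The highest copy exceeded the lowest by 1.38 to 3.57 times within a library. tRNA-Lys-TTT-1-4 (chr13:21168075-21168147, minus strand) held 7.99%, 7.14% and 7.52% of Lys-TTT-1 RPM in mNPC chromatin, 9.15%, 9.91% and 9.03% in the nucleoplasm, and 21.5%, 25.0% and 22.2% in cytoplasm. In mCtx it held 6.66%, 7.45% and 7.30% in chromatin, 14.9%, 13.3% and 15.0% in the nucleoplasm, and 22.4%, 21.5% and 21.5% in cytoplasm. It was the highest copy in all 6 cytoplasm libraries of mNPC and mCtx and in 1 of mESC, 7 libraries in all, and never in chromatin or nucleoplasm. Its own chromatin over cytoplasm log2 difference was 2.20 (SE 0.33, limma adjusted p = 8.79e-06) in mESC and 0.86 (SE 0.33, limma adjusted p = 0.0447) in mNPC, and it was not called in mCtx. tRNA-Lys-TTT-1-1, by contrast, differed by 2.26 (SE 0.28), 3.07 (SE 0.28) and 1.53 (SE 0.28) in mESC, mNPC and mCtx, with limma adjusted p = 8.31e-07, 1.98e-08 and 0.000147. The difference between the 2 copies was not tested, and how reads were divided among copies is not given in the sources used here.

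**Figure D3:**
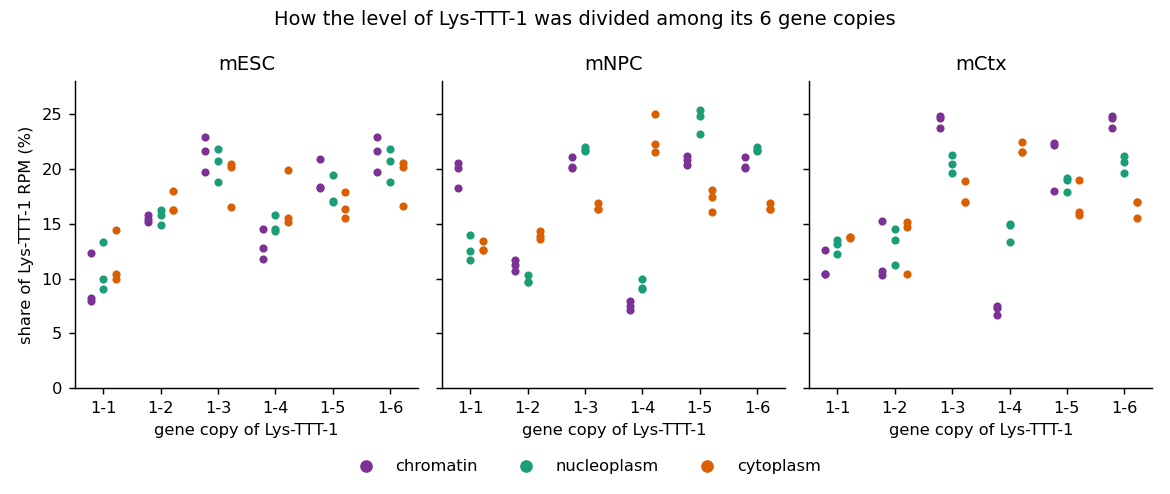
Share of Lys-TTT-1 RPM held by each of its 6 gene copies, in percent, in mESC, mNPC and mCtx; each point is 1 library. Copy 1-4 holds 7.14% to 7.99% in mNPC chromatin and 21.5% to 25.0% in mNPC cytoplasm.

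Within Lys-CTT, the 7 copies of Lys-CTT-3 had levels within a ratio of 1.1 of one another in 21 of 27 libraries, so their reads may be shared. In mNPC chromatin and in mESC chromatin replicates 2 and 3, tRNA-Lys-CTT-3-3 (chr11:48833883-48833955, minus strand, within Trim7 on the opposite strand) stood above the other copies. It had 541, 619.8 and 433 RPM in mNPC chromatin, where the copy tRNA-Lys-CTT-3-1 had 312, 219 and 201 RPM. tRNA-Lys-CTT-3-3 was not called between chromatin and cytoplasm in mNPC, while in mCtx its log2 difference was -2.03 (SE 0.37, limma adjusted p = 0.00011). Lys-CTT-2, with 2 copies, held 34.3% to 37.8% of Lys-CTT in mNPC nucleoplasm and cytoplasm, against 20.8% to 29.8% in the same fractions of mESC and 12.3% to 19.9% in those of mCtx, without overlap between cell types. tRNA-Lys-CTT-2-1 and tRNA-Lys-CTT-2-2 carried nearly equal values in every library, and tRNA-Lys-CTT-2-1 averaged 1742 RPM over all 27.

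His-GTG was lower in chromatin than in cytoplasm in all 3 cell types. It had 9502, 3371 and 2671 RPM in mESC chromatin, 11881, 14262 and 10343 RPM in nucleoplasm, and 29747, 13289 and 9283 RPM in cytoplasm, and chromatin replicate 1 just exceeded cytoplasm replicate 3. In mNPC it had 1107, 991 and 626 RPM in chromatin, 2154, 1559 and 634 RPM in nucleoplasm, and 5667, 5240.02 and 5187 RPM in cytoplasm, with cytoplasm above all others. In mCtx it had 1222, 2188 and 1817 RPM in chromatin, 1211, 1407 and 1666 RPM in nucleoplasm, and 22214, 7734 and 7799.9 RPM in cytoplasm, again apart, with cytoplasm replicate 1 the highest of its group. The log2 difference of chromatin over cytoplasm was -1.81 (SE 0.51, limma adjusted p = 0.00487) in mESC, -2.60 (SE 0.51, limma adjusted p = 0.000328) in mNPC and -2.70 (SE 0.51, limma adjusted p = 0.000228) in mCtx. Scaling to reads outside snoRNA ended the mESC call, at -0.66 (limma adjusted p = 0.317), and scaling to tRNA reads ended the mCtx call, at -0.21 (limma adjusted p = 0.85). Of the 10 His entries, 8 belong to isodecoder His-GTG-2 and share nearly all of its level, for example tRNA-His-GTG-2-8 (chr4:82619623-82619694, within Nfib), tRNA-His-GTG-2-7 (chr3:96500366-96500437) and tRNA-His-GTG-2-2 (chr2:122377363-122377434). tRNA-His-GTG-2-8 had 905, 839 and 881 RPM in mNPC cytoplasm while tRNA-His-GTG-2-1 (chr2:122375494-122375565) was listed at 0 there. tRNA-His-GTG-2-1 was at 0 in all mESC chromatin libraries too, where tRNA-His-GTG-2-8 had 1321, 497 and 477 RPM, so the single entries of these copies are uncertain.

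His-GTG also had 8 entries in the table's separate fragment class, 5 for 5′ pieces and 3 for 3′ pieces, all at the coordinates of His members. Together they had 1519, 2645 and 7341 RPM in mESC chromatin, 313, 584 and 881 RPM in nucleoplasm, and 281, 517 and 1082 RPM in cytoplasm. In mNPC they had 5479.8, 5849 and 6358 RPM in chromatin, 120.3, 1279 and 1343 RPM in nucleoplasm, and 66.6, 34.04 and 149 RPM in cytoplasm, and in mCtx 2006, 1800.3 and 1989 RPM in chromatin, 61.0, 50.9 and 49.7 RPM in nucleoplasm, and 46.5, 111 and 75.1 RPM in cytoplasm. Chromatin thus stood above both other fractions in all 3 cell types for the fragments, while the tRNA entries were called lower in chromatin than in cytoplasm. The fragments were 83.2%, 85.5% and 91.0% of all His-GTG RPM in mNPC chromatin, against 1.16%, 0.65% and 2.79% in mNPC cytoplasm. With the fragments added to the tRNA entries, a choice made after seeing the data, the mNPC call between chromatin and cytoplasm ended and its direction turned, at 0.32 (limma adjusted p = 0.649). Among the fragments, the 3′ entry tRNA-His-GTG-2-1-tRF3 had 3765, 3883 and 3699 RPM in mNPC chromatin and 1079.7, 905 and 1017 RPM in mCtx chromatin, and was at 0 in all mESC libraries. The 3′ entry of another copy, tRNA-His-GTG-2-3-tRF3, had 515, 708 and 1730 RPM in mESC chromatin, against 67.2, 158 and 0 RPM in mNPC chromatin, so like reads may be listed under different copies.

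**Figure D4:**
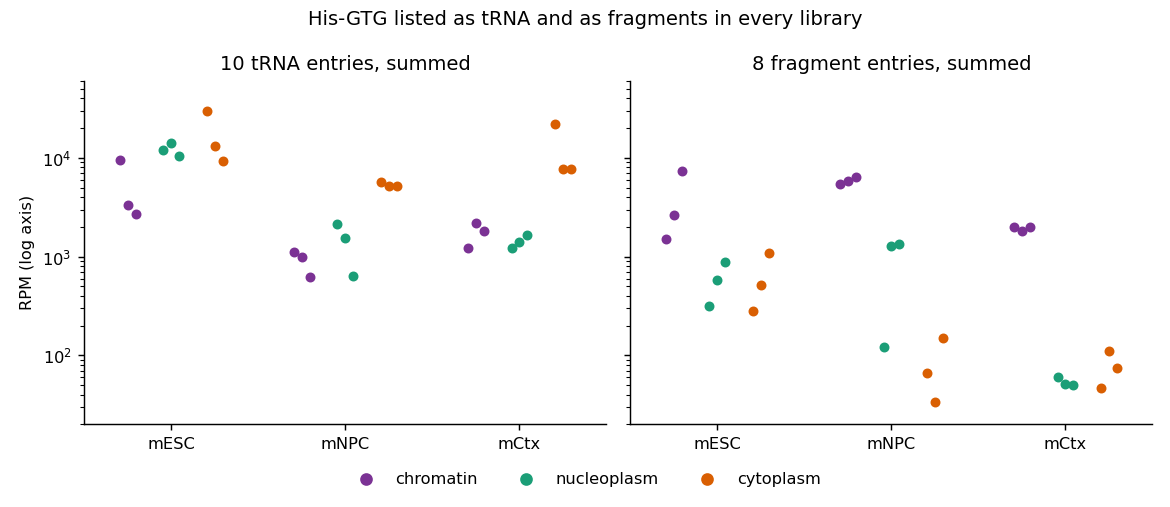
His-GTG levels in RPM on a log axis, as the sum of 10 tRNA entries and as the sum of 8 fragment entries; each point is 1 library. The tRNA sum is highest in cytoplasm in mNPC and mCtx, and the fragment sum is highest in chromatin, at 5479.8 to 6358 RPM in mNPC against 34.04 to 149 RPM in mNPC cytoplasm.

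The other His isodecoders were small. tRNA-His-GTG-1-1 (chr3:96463972-96464043, within Gm10685 on the opposite strand) had 2046, 1227 and 577 RPM in mESC cytoplasm, 158, 114 and 0 RPM in mNPC cytoplasm and 283, 159 and 140.2 RPM in mCtx cytoplasm. It was called lower in mNPC than in mESC in chromatin, nucleoplasm and cytoplasm, with limma adjusted p = 0.00192, 0.0138 and 0.0183. tRNA-His-GTG-3-1 (chr3:96435972-96436043, within BC107364 on the opposite strand) was listed at 0 in all 9 mESC libraries, in mNPC cytoplasm at 77.0, 93.2 and 0 RPM, and in mCtx cytoplasm at 196, 106 and 88.7 RPM. In mCtx nucleoplasm it had 22.4, 22.5 and 19.3 RPM, values that lie under the lowest listed value of every mNPC library, which was 22.49 RPM or more.

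Arg-CCT was listed mainly in cytoplasm. It had 0 in all 3 mESC chromatin libraries, 51.8, 96.3 and 124 RPM in mESC nucleoplasm, and 440.1, 568 and 638 RPM in mESC cytoplasm. In mNPC it had 100.7, 0 and 0 RPM in chromatin, 0 in nucleoplasm, and 1509.6, 2067 and 2139.9 RPM in cytoplasm. In mCtx it was at 0 in chromatin and nucleoplasm, and had 482, 208 and 264 RPM in cytoplasm. It was called lower in chromatin than in cytoplasm in mESC, mNPC and mCtx (limma adjusted p = 3.09e-07, 9.57e-07 and 1.99e-06), and this held under all 38 settings in each cell type. Its 3 entries, tRNA-Arg-CCT-1-1, tRNA-Arg-CCT-2-1 and tRNA-Arg-CCT-2-2 (chrX:111377217-111377289), had nearly equal values in every library. In mNPC cytoplasm they had 503, 678 and 714 RPM, 503, 695 and 714 RPM, and 503, 695 and 712 RPM, so their reads may be shared.

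The other Arg anticodons were near the lowest listed values. Arg-TCT was above 0 in 7 libraries, Arg-CCG in 5, Arg-TCG in 3 and Arg-ACG in 2, and no value exceeded 90.5 RPM. Arg-TCT in mESC had 0, 58.2 and 90.5 RPM in chromatin, all from tRNA-Arg-TCT-4-1, and 0 in cytoplasm. It was called higher in chromatin (limma adjusted p = 0.0473), a call that 20 of 37 settings ended. tRNA-Arg-TCT-4-1 was listed in 1 other library, mNPC chromatin replicate 2, at 77.7 RPM. tRNA-Arg-TCT-5-1 (chr1:173390329-173390402, within Aim2), RefSeq symbol n-TRtct5 and named after its values were seen, was listed in mCtx cytoplasm alone, at 24.2, 0 and 22.7 RPM. Arg-TCG had 22.4, 25.1 and 0 RPM in mCtx cytoplasm, all from tRNA-Arg-TCG-1-1, and 0 in mCtx chromatin and nucleoplasm. Since it was above 0 in cytoplasm libraries alone, it passed the filter through that fraction. It was called lower in both (limma adjusted p = 0.0262 and 0.0477), and neither call held when every library was given the same lowest value. The nucleoplasm call ended in 26 of 34 settings, and the chromatin call in 4 of 34, which besides the common lowest value were those without any one mCtx chromatin library. The 3′ fragment entry tRNA-Arg-ACG-1-3-tRF3 had 1957, 2003 and 1187 RPM in mNPC chromatin, against 213, 247 and 229 RPM in mNPC cytoplasm, whereas the Arg-ACG tRNA entry was listed in mNPC chromatin replicate 1 alone, at 84.2 RPM.

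Between nucleoplasm and cytoplasm, Lys-TTT, Lys-CTT and His-GTG were lower in nucleoplasm of mCtx, and His-GTG and Arg-CCT in nucleoplasm of mNPC. By limma, none of the 7 member sums was called in mESC, none higher and 2 lower in mNPC, and none higher and 5 lower in mCtx. Over all features 19.5% were called in mESC, 13.2% in mNPC and 19.9% in mCtx. In mESC 1 of the 7, Arg-CCT, had an unadjusted p under 0.05, a threshold for which no share over all features is given. The log2 difference of Arg-CCT was -2.65 (SE 1.06, limma adjusted p = 0.101). The Arg-CCT spread in this fit came in part from mNPC chromatin replicate 1, the single chromatin library with a value above 0. Without that library the limma adjusted p was 1.76e-06. That fit also pools groups with 0 in every library, which have no spread, so this p may be too small. In mCtx the log2 difference of nucleoplasm over cytoplasm was -1.36 for Lys-TTT (SE 0.35, limma adjusted p = 0.00651), -1.27 for Lys-CTT (SE 0.39, limma adjusted p = 0.0243) and -2.96 for His-GTG (SE 0.51, limma adjusted p = 0.000228). When libraries were scaled to tRNA reads, which moved the median of all features by 2.03, Lys-TTT turned to 0.97 with no call (limma adjusted p = 0.0586), Lys-CTT turned to 1.06 and was called higher (limma adjusted p = 0.0136), and the His-GTG call ended, at -0.63 (limma adjusted p = 0.274). The Lys-CTT call also ended without any one of the 3 mCtx nucleoplasm libraries, or without cytoplasm replicate 2 or 3, with log2 differences from -1.31 to -0.97. In mNPC the His-GTG difference was -2.06 (SE 0.51, limma adjusted p = 0.00755), and it missed the threshold without nucleoplasm replicate 3, at -1.55 (limma adjusted p = 0.0698). The Arg-CCT calls in mNPC and mCtx (limma adjusted p = 1.16e-07 and 5.15e-06) held under all 38 settings. Among the 30 other tRNA anticodons, 3 were called higher and 6 lower in mESC, 1 higher and 5 lower in mNPC, and none higher and 13 lower in mCtx.

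**Figure D5:**
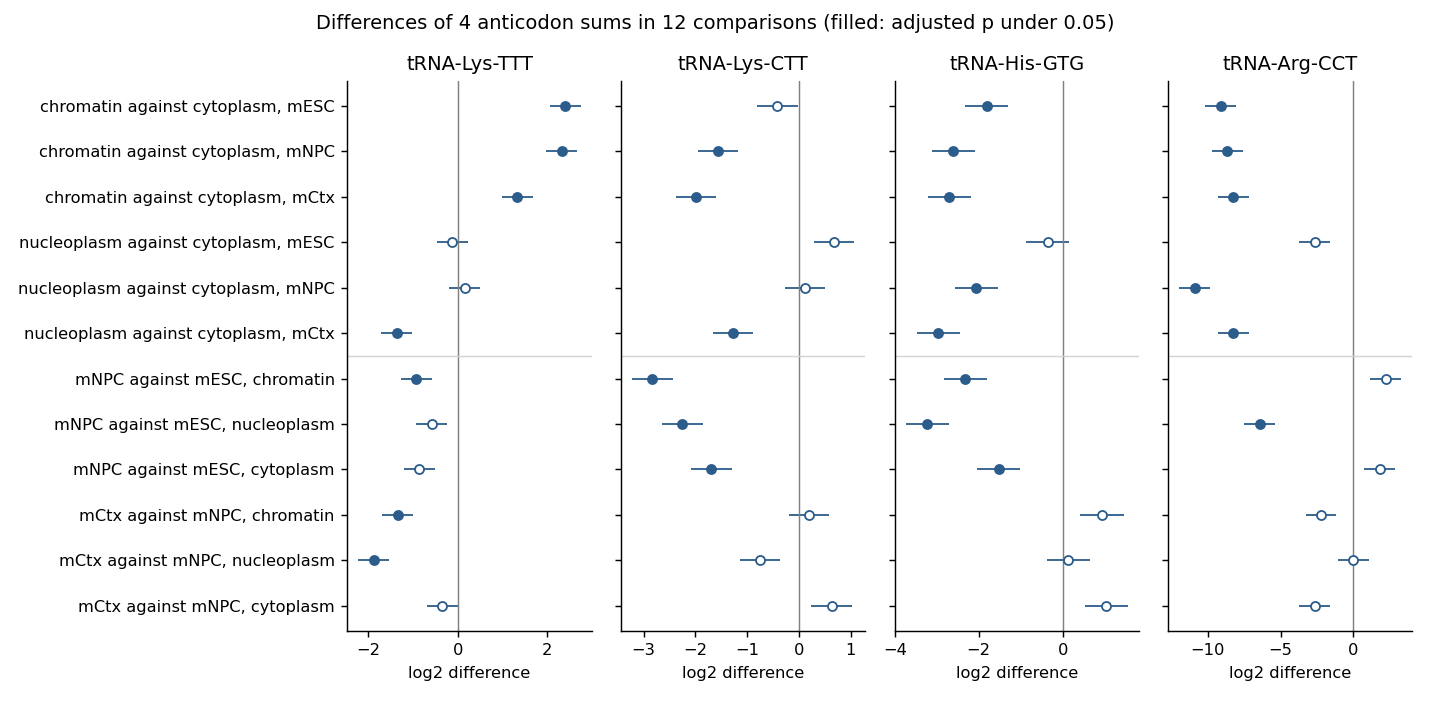
Log2 difference with its standard error for Lys-TTT, Lys-CTT, His-GTG and Arg-CCT in the 12 comparisons, from limma on log2(RPM + 1); filled points have an adjusted p under 0.05. Lys-TTT is filled and above 0 for chromatin over cytoplasm in all 3 cell types, at 2.41, 2.34 and 1.34, where His-GTG and Arg-CCT are filled and below 0; Arg-CCT values against groups at 0 depend on the pseudocount.

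Whether the step from chromatin or nucleoplasm to cytoplasm differed between cell types was tested as an interaction in the same fit. None of the 7 member sums was called for chromatin against cytoplasm in mNPC minus mESC or in mCtx minus mNPC, where 31.8% and 16.7% of all features were. Some other settings made calls. Scaled to tRNA reads, Lys-CTT turned to 1.49 and His-GTG to 1.82 in mCtx minus mNPC (limma adjusted p = 0.0202 and 0.0272). With fragments added, His-GTG there was -1.92 (limma adjusted p = 0.0108). With a common lowest value, which leaves groups at 0 without spread, Arg-CCT was called in both comparisons, at -1.54 and 2.40. Without these changes, no sum had an unadjusted p under 0.05 in mNPC minus mESC and 1 did in mCtx minus mNPC, Arg-TCT. The share of all features under that unadjusted threshold is not given here, so such counts cannot be set against the background. For nucleoplasm against cytoplasm, 1 sum, Arg-CCT, was called lower in mNPC minus mESC, beside 10.4% of all features, and none in mCtx minus mNPC, beside 8.09%. Arg-CCT was listed in all 3 mESC nucleoplasm libraries and in none of mNPC, while its cytoplasm values were higher in mNPC than in mESC (limma adjusted p = 0.00055 for the interaction). The lowest listed value in mNPC nucleoplasm was between 30.17 and 34 RPM. Since tRNA-Arg-CCT-1-1 had 17.3, 32.1 and 41.5 RPM in mESC nucleoplasm, a like level could be listed as 0 in mNPC. His-GTG in mNPC minus mESC also had an unadjusted p under 0.05, at -1.70 (SE 0.73, limma adjusted p = 0.171). In mCtx minus mNPC 2 sums, Lys-TTT and Lys-CTT, had an unadjusted p under 0.05, with differences of -1.53 (SE 0.49, limma adjusted p = 0.0656) and -1.39 (SE 0.55, limma adjusted p = 0.144).

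Between cell types, Lys-CTT and His-GTG fell in mNPC relative to mESC in all 3 fractions. The tRNA class as a whole held, as means of 3 libraries, 3.1% of listed RPM in mNPC chromatin, 2.89% in nucleoplasm and 4.19% in cytoplasm, against 16%, 12.3% and 13% in the same fractions of mESC. Of the 7 member sums, none was called higher and 3 lower in chromatin, none higher and 3 lower in nucleoplasm, and none higher and 2 lower in cytoplasm. The third nucleoplasm call was Arg-CCT (limma adjusted p = 2.74e-05), which was at 0 in mNPC nucleoplasm, and with a common lowest value in every library it ended, at -0.59 (limma adjusted p = 0.109). Over all features 43.2%, 48.7% and 39.6% were called in these fractions, so the members' counts are near the background or under it. Over chromatin, nucleoplasm and cytoplasm their median log2 difference was -1.92, -2.25 and -1.52, beside 0.00, -0.93 and 0.00 over all features and -1.93, -1.98 and -1.56 over the 30 other tRNA anticodons.

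Lys-CTT had 2389 to 3359 RPM in mNPC chromatin, against 13596 to 42658 RPM in mESC chromatin, and its log2 difference there was -2.83 (SE 0.39, limma adjusted p = 3.2e-06). The difference was -2.25 in nucleoplasm (SE 0.39, limma adjusted p = 5.1e-05) and -1.69 in cytoplasm (SE 0.39, limma adjusted p = 0.00121). No mNPC library reached the lowest mESC library of its fraction. The His-GTG difference was -2.32 in chromatin (SE 0.51, limma adjusted p = 0.000783), -3.23 in nucleoplasm (SE 0.51, limma adjusted p = 1.85e-05) and -1.52 in cytoplasm (SE 0.51, limma adjusted p = 0.0212). With the fragments added, the chromatin call of His-GTG ended, at -0.36 (limma adjusted p = 0.508). The cytoplasm call of His-GTG ended without mESC cytoplasm replicate 1, the highest library, at -1.05 (limma adjusted p = 0.149). Lys-TTT differed by -0.93 in chromatin (SE 0.35, limma adjusted p = 0.0349), where mNPC replicates 2 and 3 exceeded mESC replicate 1. That call ended without mESC chromatin replicate 2 or 3 or mNPC chromatin replicate 1 or 2, and was not made in nucleoplasm or cytoplasm (limma adjusted p = 0.194 and 0.0569). In cytoplasm, however, all mNPC libraries (2684 to 3435 RPM) lay below all mESC libraries (5404 to 6017 RPM), at -0.86 (SE 0.35). The cytoplasm call was made when scaled to reads outside snoRNA, at -1.03 (limma adjusted p = 0.0358). Without mESC chromatin replicate 1 it was made in both cytoplasm and nucleoplasm (limma adjusted p = 0.00308 and 0.0347).

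Relative to tRNA reads, these differences were smaller or turned. Lys alone made up, on average, 47.9% of tRNA class RPM in mESC chromatin and 70.6% in mNPC chromatin. The members are thus a large part of this total, which is no outside reference for them. Scaled to tRNA reads, Lys-CTT differed by -0.64, -0.31 and -0.29 in chromatin, nucleoplasm and cytoplasm, with no call, and His-GTG by -0.13 in both chromatin and cytoplasm, with no call. His-GTG in nucleoplasm stayed called, at -1.29 (limma adjusted p = 0.0157). Lys-TTT turned to 1.26 in chromatin (limma adjusted p = 0.0137) and to 1.36 in nucleoplasm (limma adjusted p = 0.00739). The median of all features moved by 0.93 in nucleoplasm under this scaling and by 0.00 in the other fractions. The shifts of 0.00 can come from features at 0 RPM in both groups, which no scaling moves. The share of calls that were higher in mNPC became 57.2%, 42.9% and 49.1% in chromatin, nucleoplasm and cytoplasm, against 42.2%, 30.1% and 39.1% as deposited.

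Arg-CCT had 1509.6 to 2139.9 RPM in mNPC cytoplasm, against 440.1 to 638 RPM in mESC cytoplasm, without overlap. The log2 difference was 1.80 (SE 1.06, limma adjusted p = 0.223), and without mNPC chromatin replicate 1, which widens its spread, the same difference had a limma adjusted p of 7.14e-05. Groups listed at 0 throughout, such as mNPC nucleoplasm, add no spread to that fit, so this p may be too small. Arg held 4.07%, 5.34% and 4.90% of tRNA class RPM in the mNPC cytoplasm libraries, against 0.36%, 0.56% and 0.88% in those of mESC.

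From mNPC to mCtx, Lys-TTT was the only member sum called in the nuclear fractions as deposited, and this depended on scaling. Its mCtx over mNPC log2 difference was -1.34 in chromatin and -1.88 in nucleoplasm (SE 0.35 each, limma adjusted p = 0.00471 and 0.000177), and all mCtx libraries lay under all mNPC libraries in both. Scaling to tRNA reads ended the chromatin call, at -0.89 (limma adjusted p = 0.112), and the nucleoplasm call held under all 37 settings. Scaled to tRNA reads, Lys-TTT was also called lower in mCtx cytoplasm, at -1.82 (limma adjusted p = 0.00101). That scaling also called Arg-CCT lower in cytoplasm, at -4.12 (limma adjusted p = 0.0141), and His-GTG higher in chromatin, at 1.39 (limma adjusted p = 0.016). As deposited, of the 7 member sums, none was called higher and 1 lower in chromatin, none higher and 1 lower in nucleoplasm, and 1 higher and none lower in cytoplasm. Over all features 30.3%, 37% and 30.2% were called. The cytoplasm call was Arg-TCG (limma adjusted p = 0.0322), at 22.4, 25.1 and 0 RPM in mCtx. In the mNPC cytoplasm libraries the lowest listed value was between 22.49 and 40.62 RPM, so a like level could be listed there as 0. The call ended in 4 of 33 settings, those with a common lowest value or without any one mNPC cytoplasm library. Among the 30 other tRNA anticodons 11 were called higher and 1 lower in mCtx cytoplasm, with a median log2 difference of 2.52 beside 1.04 for the 7 members. The tRNA class held 11.3% of listed RPM in mCtx cytoplasm, against 4.19% in mNPC cytoplasm. Scaling to tRNA reads changed the share of calls that were higher in mCtx cytoplasm to 47.7%, against 61.4% as deposited.

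Lys-CTT in mCtx cytoplasm was not called against mNPC cytoplasm, at 0.63 (SE 0.39, limma adjusted p = 0.302), but was without mCtx cytoplasm replicate 1, at 1.15 (limma adjusted p = 0.0187). His-GTG had 22214, 7734 and 7799.9 RPM in mCtx cytoplasm, against 5667, 5240.02 and 5187 RPM in mNPC cytoplasm. It was higher in mCtx without overlap, and its log2 difference of 1.04 (SE 0.51) had a limma adjusted p of 0.16. Arg-CCT had 482, 208 and 264 RPM in mCtx cytoplasm, below all mNPC cytoplasm libraries. Its difference of -2.66 (SE 1.06, limma adjusted p = 0.0669) passed without mNPC chromatin replicate 1 (limma adjusted p = 1.21e-06). This p, too, comes from a fit with groups listed at 0 throughout, and may be too small.

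When every entry was tested singly, 34 of the 40 members passed the filter, among 851 entries. Between chromatin and cytoplasm 9 members were called higher and 10 lower in mESC, 6 higher and 16 lower in mNPC, and 5 higher and 17 lower in mCtx, beside 54.4%, 38.8% and 44.1% of all entries. In mCtx the 5 that were higher were all Lys, whereas none of the 125 other tRNA entries was called higher and 78 were called lower. Between nucleoplasm and cytoplasm none was called higher and 4 lower in mESC, none higher and 12 lower in mNPC, and none higher and 18 lower in mCtx, beside 19.2%, 15.5% and 25.3%. In mNPC against mESC none was called higher and 17 lower in chromatin, none higher and 22 lower in nucleoplasm, and 1 higher and 17 lower in cytoplasm, beside 44.9%, 48.6% and 41.6%. In mCtx against mNPC none was called higher and 6 lower in chromatin, 2 higher and 8 lower in nucleoplasm, and 2 higher and 3 lower in cytoplasm, beside 27.8%, 33.8% and 32.3%. Copies that share reads are called together, so these counts are not counts of independent genes.

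By Pearson correlation of log2(RPM + 1) over the 27 libraries, the tRNA anticodon most like His-GTG was Glu-TTC (r = 0.945), and the one most like Lys-CTT was Cys-GCA (r = 0.83). Lys-TTT was most like Gly-CCC (r = 0.658) and Arg-CCT most like Glu-TTC (r = 0.756). Cys-GCA and Arg-CCT were each above 0 in 13 of the 27 libraries, so their r values partly set listed libraries against libraries at 0. Among the members, His-GTG had an r of 0.78 with Lys-CTT and of -0.07 with Lys-TTT. These values describe libraries that share fractions and cell types.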

How the data were processed

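Small RNA libraries of 27 samples (9 groups of 3) were read as 100 bp single reads from RNA under 200 nt, per the labels' protocols. The authors deposited 1 table of RPM (reads scaled to library total) for 1013 entries; the sources used here do not give the aligner, the counting of shared reads or the depth, and whole reads could not be recovered. tRNA entries were summed by anticodon. Features at 1 RPM or more in at least 3 libraries were tested on log2(RPM + 1) with limma 3.58.1 (R 4.3.3; intensity trend, robust variance, 1 mean per group, Benjamini-Hochberg over all tested features, threshold 0.05). The fit was tried on simulated data. A limit on false calls was set only where all simulated libraries had the same lowest value, unlike the real libraries. Python 3.11.15 with pandas 2.3.3 did the rest. Alternatives covered the pseudocount, filters, a common lowest value, scaling, variance model, replicate block and each library left out; the highest copy, added fragments and a block within cell type were chosen after seeing the data. Entries named were, by rule, the 3 with the highest mean RPM per amino acid, the largest called difference per comparison and tRNA-Arg-TCT-4-1; all others were named after their values were seen. Members and lists were chosen with earlier results of these data known. Positions were matched to RefSeq (GRCm38.p6) and GENCODE M21.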

Additional observations from a re-analysis of the deposited data

Results flagged for a closer look

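The nucleoplasm over cytoplasm difference of Arg-CCT differed between mNPC and mESC, by -8.23 on the log2(RPM + 1) scale for mNPC minus mESC (SE 1.497, limma adjusted p = 0.00055), which a test of the difference itself flagged. The 3 mNPC libraries had 0, 0 and 0 RPM in nucleoplasm and 1509.6, 2067 and 2139.9 RPM in cytoplasm, and the 3 mESC libraries had 51.8, 96.3 and 124 RPM in nucleoplasm and 440.1, 568 and 638 RPM in cytoplasm. It is a fitted value and no fold or bound, because mNPC nucleoplasm was listed at 0. Over 38 settings it ran from -8.96 to -2.38, and the call was kept in all of them. With a common lowest value, mNPC against mESC was -0.59 in nucleoplasm, with no call (limma adjusted p = 0.109). The cytoplasm part was 1.80 there and as deposited, where it was not called (limma adjusted p = 0.223). In mESC nucleoplasm tRNA-Arg-CCT-1-1 had 17.3, 32.1 and 41.5 RPM. The lowest listed value in mNPC nucleoplasm was between 30.17 and 34 RPM, so a like level could be listed there as 0.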

How the results depend on the processing

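Counts of called anticodon sums depended most on scaling to tRNA reads. It gave 3 (as deposited 5) for chromatin against cytoplasm in mCtx, 3 (5) for nucleoplasm against cytoplasm in mCtx with 1 higher, 1 higher (3 lower) for mNPC against mESC in chromatin, 0 (2) in cytoplasm, 1 higher (1 lower) for mCtx against mNPC in chromatin, 3 (1) in cytoplasm, and 2 (0) for the chromatin interaction of mCtx minus mNPC. Called differences that turned under it were 0.497 for Lys-CTT in chromatin against cytoplasm of mCtx and, in nucleoplasm against cytoplasm of mCtx, 1.062 for Lys-CTT and 0.968 for Lys-TTT, and 1.264 for Lys-TTT in mNPC against mESC chromatin. Other Lys and His sums that turned had no call as deposited, nor had the Arg-CCT one. For single entries it gave 15 (22), 1 (4), 20 (18), 13 (22), 8 (18), 11 (6) and 14 (5) for chromatin in mCtx, nucleoplasm in mESC and mCtx, mNPC against mESC in nucleoplasm and cytoplasm, and mCtx against mNPC in chromatin and cytoplasm. The cause was not tested. Scaling outside snoRNA gave 16 entries (19) for chromatin in mESC and 1 sum (0) for the chromatin interaction of mNPC minus mESC.

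Sums in nucleoplasm against cytoplasm of mESC numbered 1 (0) with a pseudocount of 10, a common lowest value or the highest copy. In mNPC against mESC cytoplasm the highest copy gave 1 (2). In mCtx against mNPC, added fragments gave 2 (1) in chromatin, 2 (1) in nucleoplasm and 3 (1) in cytoplasm, and the highest copy 2 in nucleoplasm and 2 in cytoplasm. In that cytoplasm a pseudocount of 10 gave 2, the stricter filter 0 and a common lowest value 1, lower, while for entries the pseudocount gave 7 (5) and the stricter filter 3. Interactions numbered 1 (0) with a common lowest value in both chromatin tests and in nucleoplasm of mCtx minus mNPC, where the highest copy and added fragments also gave 1, as added fragments did in chromatin. His-GTG in mNPC chromatin turned to 0.321 with fragments added.

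Leaving out 1 library gave 3 to 5, 4 to 4 and 4 to 5 sums for chromatin against cytoplasm in mESC, mNPC and mCtx, and 0 to 1, 1 to 2 and 3 to 5 for nucleoplasm. It gave 2 to 4, 3 to 4 and 1 to 3 for mNPC against mESC in chromatin, nucleoplasm and cytoplasm, and 1 to 2, 1 to 1 and 0 to 2 for mCtx against mNPC. The interactions ran from 0 to 1, except 1 to 1 for nucleoplasm in mNPC minus mESC. Single entries ran, in the same order, 17 to 27, 20 to 23, 21 to 24, 0 to 4, 9 to 14, 10 to 23, 16 to 22, 20 to 25, 13 to 21, 3 to 8, 10 to 12 and 0 to 19. The 19 came without mESC chromatin replicate 1.

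Whether replicate numbers pair the samples was not settled. In no comparison did all 3 pairs correlate above 0.1. Each library nevertheless correlated best with its own number in 4 of 12 comparisons. These were chromatin and nucleoplasm against cytoplasm in mESC, nucleoplasm against cytoplasm in mNPC, and mNPC against mESC in chromatin. With the replicate block, the nucleoplasm interaction of mCtx minus mNPC had 1 called sum (0 without it), Lys-TTT at -1.53 (limma adjusted p = 0.0335), likewise 1 with a block within cell type, and Lys-TTT in mNPC against mESC cytoplasm was called (limma adjusted p = 0.0312). Depth is unknown, so differences near the lowest listed values were not resolvable.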
